A study of Rattus norvegicus with 8 samples.

Results

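NF-kB is a family of dimeric transcription factors, and the genes described here are its subunits and the inhibitors that hold it back: Nfkb1, Nfkb2, Rel, Rela and Relb on one side, Nfkbia, Nfkbib, Nfkbie, Nfkbiz and Tnfaip3 on the other. These 10 genes were taken by name from the RNA-seq counts of rat whole blood. They were chosen by the lower level of Nfkbia after Chios mastic gum (CMG) in the Angiotensin II (AngII) model, which was known, so the values of that comparison stand below as a description, without a test. Of the 10 genes, 7 were analysed among 17446 gene rows, namely 3 subunits (Nfkb1, Nfkb2 and Rela) and 4 inhibitors (Nfkbia, Nfkbib, Nfkbie and Nfkbiz). Rel, Relb and Tnfaip3 were not analysed here.

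In resting cells, IkB proteins such as IkB-alpha (Nfkbia), IkB-beta (Nfkbib) and IkB-epsilon (Nfkbie) bind NF-kB dimers and keep them out of the nucleus. Receptors for cytokines and microbial products activate the IKK kinases, which mark IkB for degradation, and the freed dimers then switch on target genes that include Nfkbia itself, so that the pathway writes its own brake. Nfkbiz codes for IkB-zeta, an atypical nuclear member that works with NF-kB subunits at a subset of inflammatory promoters, either as a helper or as a brake. In blood, the pathway operates mainly in leukocytes, where it is best known for inflammatory responses of neutrophils and monocytes and for lymphocyte activation.

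Blood came from male Wistar rats, wild type, of 2 hypertension models, and each group below holds 2 libraries. The rats' age is given as 12 to 14 weeks, not by draw, and the draws date from different weeks of the models. In the AngII model, rats received AngII at 0.4 mg/kg/day from an osmotic minipump, with the blood of the first group drawn at week 1, ahead of CMG, and that of the second at week 5, under CMG. In the DOCA–HS model, rats received Deoxycorticosterone acetate weekly at 100 mg/kg with 0.9% NaCl and 1% KCl as drinking water, and the draws date from week 3 and week 7. CMG, the resin of Pistacia lentiscus var. Chia, was given by gavage at 220 mg/kg daily for 4 weeks, to 5 rats of the AngII and 6 rats of the DOCA–HS model. No library of a gavage control group was analysed here, so time in the model, 4 weeks more of it, is part of every difference between after and before CMG, and the minipump type is rated for 4 weeks while the second AngII sample dates from week 5. Model, week of sampling and any processing batch cannot be told apart in a comparison of the models.

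The stretches upstream of 4 of these genes are shown because NF-kB is known to act on such stretches. They are the 250 bases before the annotated start, 5′ to 3′ on the gene's own strand, taken from RefSeq on the GRCr8 assembly, which is another build than the rn6 assembly of the reads. Capitals mark matches to a kappaB motif, the binding letters of NF-kB. Nfkbia, Nfkbiz and Nfkb2 hold a match close to the start, and Nfkbib is the example without one.
Nfkbia, chr6:78597073-78597322, strand -: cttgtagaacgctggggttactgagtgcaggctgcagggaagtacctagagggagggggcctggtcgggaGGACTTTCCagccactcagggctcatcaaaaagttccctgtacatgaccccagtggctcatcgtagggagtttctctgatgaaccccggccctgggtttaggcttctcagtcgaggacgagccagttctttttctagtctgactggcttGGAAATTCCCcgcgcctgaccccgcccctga
Nfkbiz, chr11:58251471-58251720, strand +: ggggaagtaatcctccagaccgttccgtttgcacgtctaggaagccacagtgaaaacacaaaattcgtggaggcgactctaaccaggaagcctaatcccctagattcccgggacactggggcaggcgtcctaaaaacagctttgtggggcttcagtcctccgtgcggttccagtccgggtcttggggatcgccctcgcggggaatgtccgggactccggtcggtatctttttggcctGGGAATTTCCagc
Nfkb2, chr1:255108124-255108373, strand +: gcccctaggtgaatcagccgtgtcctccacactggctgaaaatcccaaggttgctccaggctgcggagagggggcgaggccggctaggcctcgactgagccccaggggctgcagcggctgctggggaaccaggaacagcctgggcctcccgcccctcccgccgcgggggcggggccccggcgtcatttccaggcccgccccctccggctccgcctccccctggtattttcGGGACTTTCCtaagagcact
Nfkbib, chr1:93181388-93181637, strand -: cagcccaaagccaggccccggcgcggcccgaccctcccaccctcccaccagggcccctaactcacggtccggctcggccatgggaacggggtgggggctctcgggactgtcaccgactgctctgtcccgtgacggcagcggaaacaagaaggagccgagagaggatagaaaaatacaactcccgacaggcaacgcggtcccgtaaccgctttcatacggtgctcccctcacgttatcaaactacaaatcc

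Both strands of these windows were searched for the kappaB consensus and for a core of it, GGNNTTTCC. Of the 4 core matches found, 3 lie within a match to the consensus, so the counts overlap. The consensus matched in 4 of the 7 windows, against 6.41% of the windows of all 27457 genes in the table. In Nfkbia it read GGAAATTCCC, 31 to 22 bases before the start, with a separate core match further up, GGACTTTCC, 180 to 172 bases before it. In Nfkbiz it read GGGAATTTCC at 13 to 4 bases and in Nfkb2 GGGACTTTCC at 20 to 11 bases, while in Nfkbie it lay further away, GGGGGATTCC at 164 to 155 bases. The core matched in 3 of 7 windows (5.18% of all windows), in Nfkbia, Nfkbiz and Nfkb2. The AP-1 motif TGANTCA matched in 2 windows, those of Nfkb2 and Nfkbie (6.36% of all windows), and the SP1 motif GGGCGG in 5 (32.4% of all windows), all but those of Nfkbib and Nfkbiz. The windows of Nfkb1, Rela and Nfkbib held no kappaB match. A match is a run of letters, and binding was not measured.

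Depth was uneven. The libraries held 4149104 to 13205565 counts, of which 61.9% to 84.3% fell on 2 hemoglobin genes, and 651764 to 4490083 counts remained outside them. The second library after CMG in the DOCA–HS model (DOCA–HS after replicate 2) stood apart, with the fewest counts outside hemoglobin, the highest hemoglobin share, a normalization factor of 0.343 and 2686 genes with at least 10 counts, against 6097 to 8280 in the other libraries. It holds 3 to 88 counts for each of the 7 genes. Leukocyte markers were found in every library, and of the 7 heart muscle markers 6 or 7 were at 0 in each library. Levels below are normalized CPM, counts scaled to a common library size, comparable for 1 gene between libraries but not between genes, since no transcript length enters them. In whole blood, fewer cells of a type and less RNA per cell cannot be told apart. The sources used here do not state that libraries came from separate rats, so a p-value measures the spread between these libraries alone. The labels name cardiac puncture for every library, while the study's methods have the rats bled at several times, so whether before and after libraries share rats is not settled.

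Among the inhibitors, Nfkbia was highest in the AngII model before CMG. Its level was 63.7 and 61.3 CPM before CMG and 19.5 and 22.3 CPM after CMG in the AngII model. DOCA–HS libraries held it at 23.7 and 22.8 CPM before and 17.3 and 25.3 CPM after CMG. Thus both AngII libraries from before CMG lie far above the other 6 libraries, which span 17.3 to 25.3 CPM, and of the other 3 groups only AngII after and DOCA–HS before do not overlap. The AngII means were 62.5 ± 1.72 CPM before and 20.9 ± 1.94 CPM after CMG (SD, n = 2), and the DOCA–HS means 23.3 ± 0.615 and 21.3 ± 5.67 CPM. In the order AngII before, DOCA–HS before, DOCA–HS after and AngII after, only the first step separates neighbours that do not overlap.

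Nfkbiz followed a similar order, with more spread. Its level was 19.3 and 13.9 CPM before CMG and 7.20 and 4.59 CPM after CMG in the AngII model. The DOCA–HS levels were 11.0 and 3.93 CPM before and 7.07 and 2.11 CPM after CMG. Both AngII libraries from before CMG again lie above all others, while the other 3 groups overlap. The lowest level, in DOCA–HS after replicate 2, rests on 3 counts, with an exact Poisson interval of 0.619 to 8.77 counts, which covers counting error only.

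Nfkbib and Nfkbie, the other cytoplasmic IkB genes, did not share this order. Nfkbib was at 56.2 and 67.6 CPM before and 62.4 and 39.3 CPM after CMG in AngII rats, and at 34.6 and 40.8 CPM before and 35.7 and 61.9 CPM after CMG in the DOCA–HS model. Every pair of neighbouring groups overlapped for Nfkbib. Nfkbie was at 4.09 and 5.41 CPM before and 7.36 and 6.43 CPM after CMG in the AngII model. Nfkbie was at 5.43 and 5.63 CPM before and 5.69 and 4.22 CPM after CMG in DOCA–HS rats. Both AngII after libraries stand above the other 6 for Nfkbie, and of the other 3 groups only AngII before and DOCA–HS before do not overlap.

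The 3 subunits varied less, apart from DOCA–HS after replicate 2. Nfkb1 codes for p105, the precursor of p50, and was at 23.7 and 22.0 CPM before and 24.2 and 29.7 CPM after CMG in AngII rats, and at 31.3 and 25.6 CPM before and 26.4 and 11.95 CPM after CMG in the DOCA–HS model. Rela codes for p65, the subunit with the transactivating domain of the classical dimer, and was at 13.8 and 14.02 CPM before and 14.4 and 16.8 CPM after CMG in the AngII model. Rela was at 15.3 and 17.8 CPM before and 15.0 and 4.92 CPM after CMG in the DOCA–HS libraries. Without the last library, the levels of Rela span 13.8 to 17.8 CPM. Nfkb2 codes for p100, which is processed to p52 in the alternative pathway, and was at 8.10 and 8.11 CPM before and 10.4 and 12.6 CPM after CMG in AngII rats, and at 11.0 and 14.2 CPM before and 12.2 and 7.73 CPM after CMG in the DOCA–HS model. The lowest level of each subunit was that of DOCA–HS after replicate 2, where Nfkb1, Nfkb2 and Rela had 17, 11 and 7 counts.

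**Figure D1:**
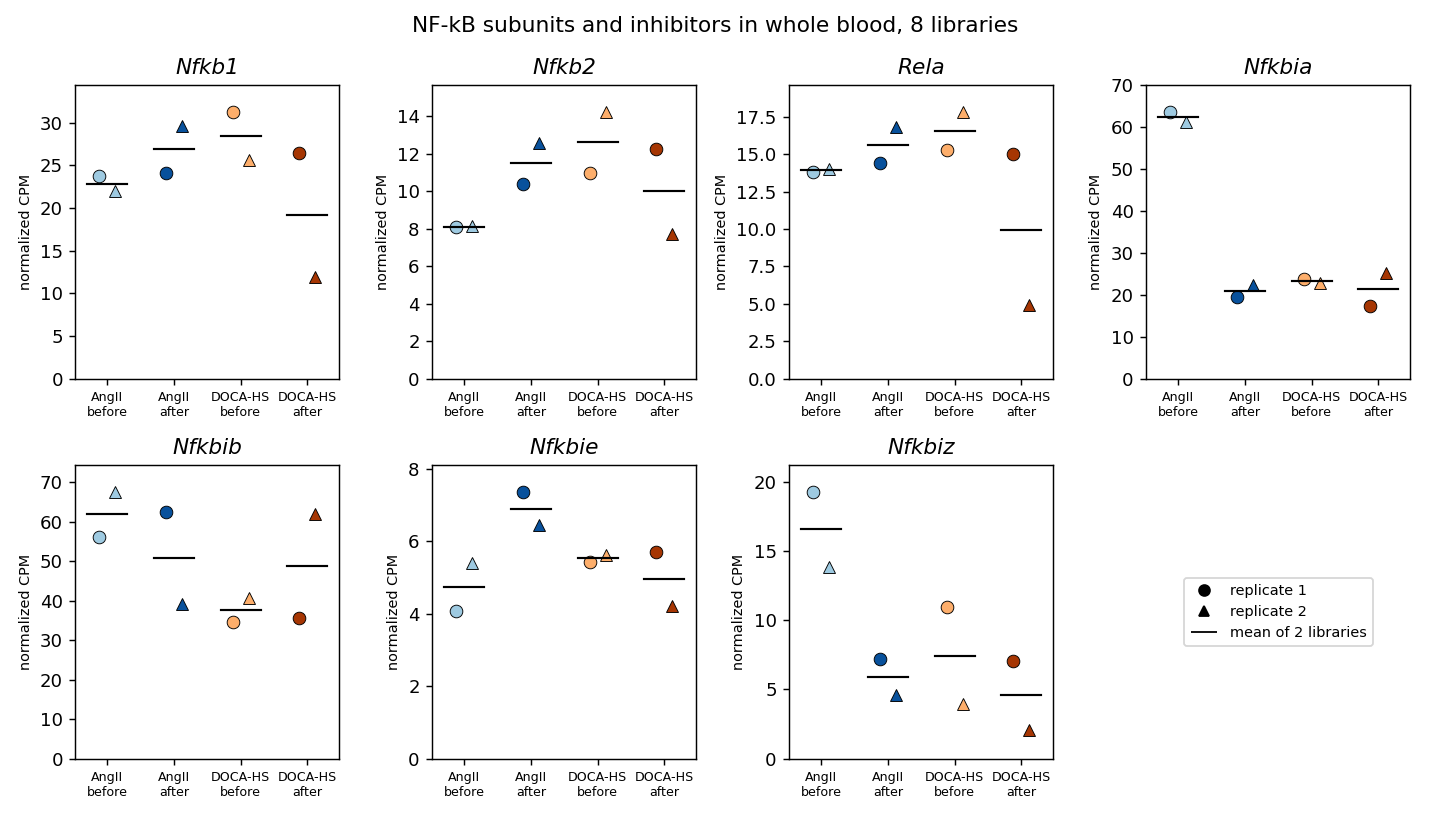
Normalized CPM (linear axes from 0) of the 3 subunits and 4 inhibitors in the 4 groups. Circles and triangles are replicates 1 and 2, and bars are means of 2 libraries. Nfkbia lies at 61.3 and 63.7 CPM in AngII before CMG and at 17.3 to 25.3 CPM in the other 6 libraries, and the triangle of DOCA–HS after is the lowest point for each subunit.

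The comparison of after with before CMG within the AngII model asks how blood expression differed once 4 weeks of CMG had been given. Nfkbia and Nfkbiz had the largest differences of the 7 genes, both lower after CMG, and the log2 fold changes of the other 5 lay between −0.26 and 0.57. The log2 fold change was −1.56 (SE 0.31) for Nfkbia and −1.5004 (SE 0.36) for Nfkbiz, on which Nfkbia ranked 24th and Nfkbiz 27th from the lowest of 7201 genes. It was −0.26 (SE 0.35) for Nfkbib and 0.57 (SE 0.30) for Nfkbie. For the subunits it was 0.26 (SE 0.30) for Nfkb1, 0.53 (SE 0.29) for Nfkb2 and 0.19 (SE 0.29) for Rela. After and before libraries overlapped for Nfkbib only. How often genes separate in this way over all genes was not computed, so nothing is read from it. The median log2 fold change of the 7 genes was 0.19, against −0.01 over all genes.

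By the criterion of the study, a log2 fold change beyond 1.5 with an unadjusted p-value of at most 0.05, Nfkbia and Nfkbiz were the 2 of 7 genes called lower and 0 were called higher. Over all genes, 0.333% were called lower and 0.903% higher, and since this comparison is the one known when the genes were chosen, nothing is read from the count. Nfkbiz sits at the edge of the threshold: its log2 fold change was −1.24 without AngII before replicate 1 and −1.19 without AngII after replicate 2. With total counts in place of the TMM normalization, neither gene passed the threshold (−1.17 for Nfkbia and −1.19 for Nfkbiz), but the median over all genes then moved to 0.36. Relative to that median, Nfkbia stood at −1.55 with TMM and −1.54 with total counts, and Nfkbiz at −1.49 and −1.56.

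Counts per 100 counts of the 3 subunits in the same library are free of any scaling between libraries. They were computed after the data were seen, and they compare libraries for 1 inhibitor, not inhibitors with each other. Nfkbia stood at 140 and 139 counts per 100 subunit counts before and at 39.9 and 37.7 after CMG under AngII, and at 41.2 and 39.6 before CMG in the DOCA–HS model. After CMG in the DOCA–HS model it was 32.2 in replicate 1 and 103 in replicate 2, where an exact interval of 62.8 to 169 reflects its 36 counts of Nfkbia and 35 of subunits. So the 2 libraries of a group differ by little in 3 of the 4 groups, and the fourth is split by its shallow library. The ratio of Nfkbiz was 42.2 and 31.4 before and 14.7 and 7.77 after CMG under AngII, and 19.1 and 6.81 before and 13.2 and 8.57 after CMG in the DOCA–HS model. For Nfkbib it was 123 and 153 before and 127 and 66.5 after CMG under AngII, and 60.1 to 251 in the DOCA–HS model. For Nfkbie it spanned 8.95 to 17.1 over the 8 libraries. The make-up of the subunit counts moved less than the inhibitors, with Nfkb1 at 44.4% to 54.4%, Nfkb2 at 17.7% to 31.4% and Rela at 20.0% to 31.8% of them.

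**Figure D2:**
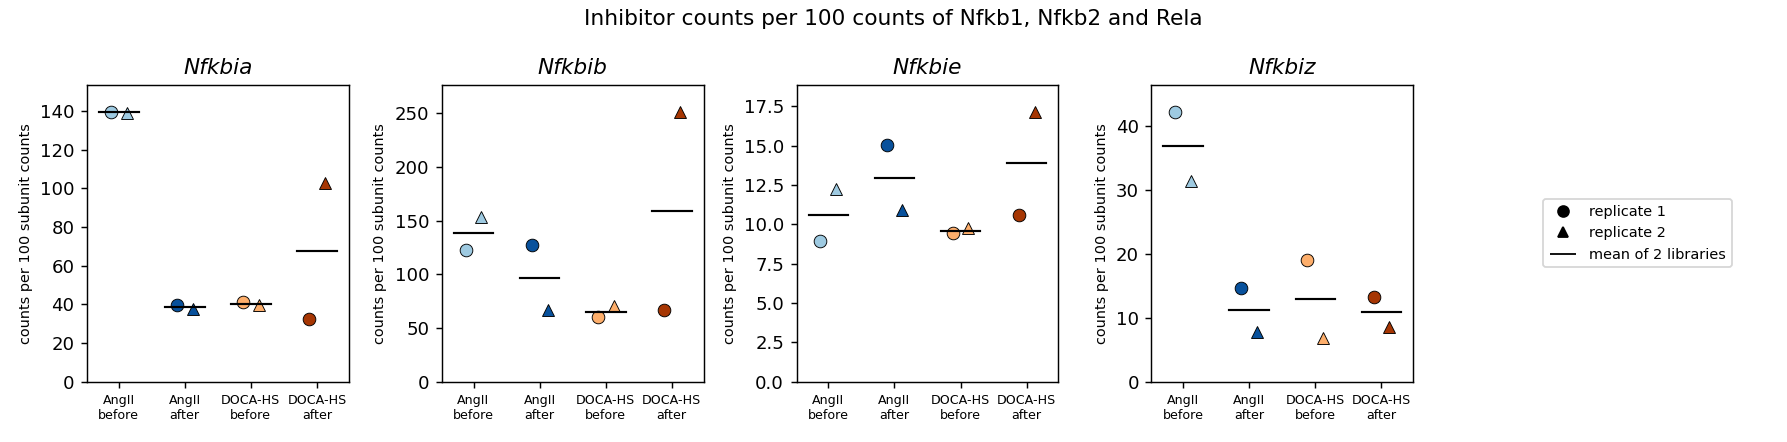
Counts of each inhibitor per 100 counts of Nfkb1, Nfkb2 and Rela in the same library (linear axes from 0). Circles and triangles are replicates 1 and 2, and bars are means of 2 libraries. For Nfkbia the AngII before libraries (140 and 139) stand above all others, and the DOCA–HS after libraries lie apart (32.2 and 103).

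In the DOCA–HS model, none of the 7 genes passed the criterion after against before CMG, while 1.79% of all 7720 genes tested were called higher and 0.259% lower. The log2 fold change of Nfkbia was −0.15 (SE 0.45, unadjusted p = 0.752) and that of Nfkbiz −0.49 (SE 0.65, unadjusted p = 0.470) by the quasi-likelihood test of edgeR. It was 0.36 (SE 0.50, unadjusted p = 0.485) for Nfkbib and −0.09 (SE 0.45, unadjusted p = 0.852) for Nfkbie. For the subunits, edgeR gave −0.52 (SE 0.51, unadjusted p = 0.340) for Nfkb1, −0.27 (SE 0.46, unadjusted p = 0.568) for Nfkb2 and −0.61 (SE 0.54, unadjusted p = 0.290) for Rela. The Benjamini-Hochberg adjusted p-value was 0.997 for each of them, and an unadjusted p-value under 0.05 was found for 0 of the 7 by edgeR, DESeq2 or limma-voom. Only for Rela did the after and before libraries not overlap, without a share over all genes to set beside it. With 2 libraries a group, a missed threshold does not show that the levels were equal.

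These values rest on which DOCA–HS after library is used. Without replicate 2, the log2 fold changes of the subunits lay between −0.13 and −0.03. Without replicate 1, Rela fell by 1.74 on the log2 scale (edgeR, unadjusted p = 0.00359) and Nfkb1 by 1.25 (unadjusted p = 0.00976), on the 7 and 17 counts of the shallow library. The after arm is then 1 library, assumed to vary like the before libraries. Nfkbia was at −0.42 without replicate 2 and at 0.12 without replicate 1. Nfkbiz was at −1.87 without after replicate 1 and at 0.36 without before replicate 1. Cell markers moved beside these genes, with median log2 fold changes of 1.26 for 5 platelet genes, 0.56 for 6 erythroid genes and −0.92 for 8 B cell genes, and 2 of them, the platelet genes Treml1 and Pf4, met the criterion. Summed platelet markers were at 194 and 279 CPM before and at 557 and 951 CPM after CMG, summed erythroid markers at 10681 and 14762 CPM before and at 11621 and 36449 CPM after, and summed B cell markers at 135 and 100.1 CPM before and at 83.4 and 41.5 CPM after. The part of these cells in the values of the 7 genes was not tested.

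The change after CMG, DOCA–HS minus AngII, was 1.42 (SE 0.53) on the log2 scale for Nfkbia and 1.04 (SE 0.80) for Nfkbiz, where the median over all genes was −0.12. It was 0.64 (SE 0.61) for Nfkbib and −0.63 (SE 0.50) for Nfkbie, and −0.75 (SE 0.60), −0.77 (SE 0.53) and −0.76 (SE 0.63) for Nfkb1, Nfkb2 and Rela. These differences were not tested, since they contain the AngII libraries whose values were known.

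**Figure D3:**
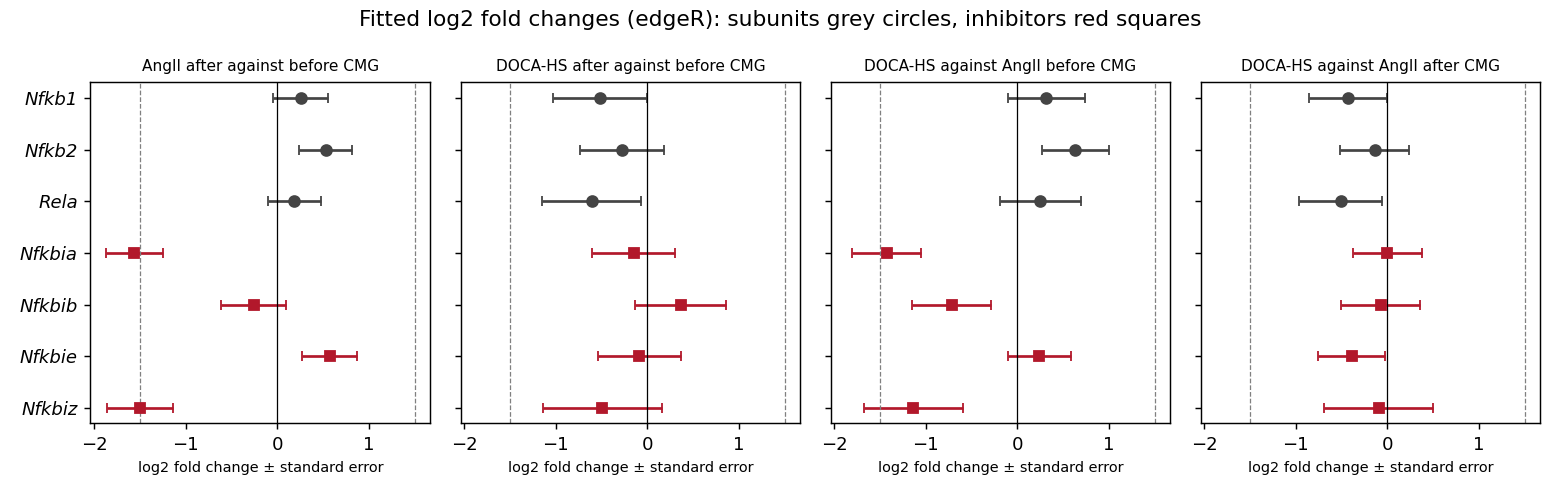
Log2 fold changes fitted by edgeR with standard errors (horizontal axis) for the 7 genes in 4 comparisons. Grey circles are subunits, red squares inhibitors, and dashed lines mark 1.5 in either direction. Nfkbia (−1.56) and Nfkbiz (−1.5004) lie at the lower line in AngII after against before CMG, and no gene reaches a line in the other 3 comparisons.

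Before CMG, Nfkbia and Nfkbiz had the lowest values of the 7 genes in DOCA–HS against AngII blood. The log2 difference of Nfkbia was −1.43 (SE 0.37), DOCA–HS minus AngII, which is given as a description because it contains the AngII before libraries. For the other 6 genes the test of edgeR was applied to all 8 libraries. Nfkbiz differed by −1.14 (SE 0.54, unadjusted p = 0.0609), Nfkbib by −0.72 (SE 0.43, unadjusted p = 0.126) and Nfkbie by 0.24 (SE 0.34, unadjusted p = 0.507), DOCA–HS minus AngII. Nfkb2 differed by 0.63 (SE 0.37, unadjusted p = 0.113), Nfkb1 by 0.32 (SE 0.42, unadjusted p = 0.466) and Rela by 0.25 (SE 0.44, unadjusted p = 0.582). None of the 7 genes passed the criterion, against 0.425% of 7994 genes called higher and 0.413% called lower in DOCA–HS, and adjusted p-values of the 6 genes were 0.992 to 0.999. Of these 6, 0 had an unadjusted p-value under 0.05 by edgeR and by DESeq2, and 1, Nfkbiz, by limma-voom (unadjusted p = 0.0339). No group overlapped the other for any of the 7 genes. The share of all genes without overlap was not computed, and with 2 libraries a group nothing is read from this count.

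With total counts, the difference of Nfkbia shrank to −0.62 while the median over all genes moved from 0.06 to 0.86, and relative to the median it was −1.49 with TMM and −1.48 with total counts. Leaving out DOCA–HS before replicate 1 took Nfkbiz to −2.05, past the criterion with an arm of 1 library, and leaving out DOCA–HS before replicate 2 took it to −0.66. This comparison shares the AngII before libraries with the AngII comparison above, so the similar order of genes in the 2 is not a second observation. Erythroid markers had a median of −0.99 over 6 genes and B cell markers of 0.60 over 8, DOCA–HS minus AngII, and their part in these values was not tested.

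After CMG, the level of Nfkbia was 20.9 ± 1.94 CPM in AngII and 21.3 ± 5.67 CPM in DOCA–HS (SD, n = 2). These groups overlap, and the fitted difference lay near 0, with a standard error of 0.38. Nfkbiz differed by −0.10 (SE 0.59), Nfkbib by −0.08 (SE 0.43) and Nfkbie by −0.39 (SE 0.36), DOCA–HS minus AngII. Nfkb1 differed by −0.43 (SE 0.43), Nfkb2 by −0.14 (SE 0.38) and Rela by −0.51 (SE 0.45). None of the 7 genes passed the criterion, against 1.09% of all genes called higher and 0.313% called lower in DOCA–HS. Nfkbia is given as a description, because the comparison contains the AngII after libraries, whose values were known. The lowest unadjusted p-value of the other 6 genes was 0.284 by edgeR. The libraries overlapped for all but Nfkbie, again without a share over all genes to set beside it. Without DOCA–HS after replicate 1, the difference of Rela was −1.68 (edgeR, unadjusted p = 0.00453) and that of Nfkb1 −1.19 (edgeR, unadjusted p = 0.0139), with the shallow library alone in its arm and the spread taken from the other groups.

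The wider pathway was described with lists of its receptors and ligands, its adaptors and kinases, its other negative regulators and its target genes. None of the 7 receptor and ligand genes tested, of the 23 adaptor and kinase genes or of the 16 other negative regulators met the criterion in any of the 4 comparisons. In the AngII model their median log2 fold changes after against before CMG were 0.26, 0.13 and −0.08. Picked out after their values were seen were Zc3h12a, an RNase that destabilizes inflammatory messenger RNAs, at −1.35 (SE 0.43), and the receptor genes Ltbr at 1.11 (SE 0.33) and Tnfrsf1a, the main TNF receptor, at 0.98 (SE 0.29). Zc3h12a was at 9.28 and 12.5 CPM before and 6.08 and 2.59 CPM after CMG in AngII rats, and at 4.99 and 4.67 CPM before CMG in the DOCA–HS model. After CMG in the DOCA–HS model it was at 4.92 and 1.41 CPM, so both AngII before libraries held its highest levels. Of the 16 other negative regulators, 10 lay below 0 and 6 above in the AngII model, and nothing is read from the gene picked. Birc3, a ubiquitin ligase of the TNF receptor complex, stood at 1.00 (SE 0.30), with 3.14 and 3.04 CPM before and 5.76 and 6.43 CPM after CMG in AngII rats and 6.15 and 5.52 CPM before CMG in the DOCA–HS model.

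Of the 50 target genes, 30 were tested in the AngII model, where Tnfaip2, a TNF-induced gene, was called higher (2.48, SE 0.58) and Cxcl2, a neutrophil-attracting chemokine, lower (−2.02, SE 0.52). Over all genes, 0.903% were called higher and 0.333% lower. The list's median was 0.25, so the targets as a list did not share the sign of Nfkbia. Cxcl2 was at 9.35 and 12.2 CPM before and 4.32 and 1.26 CPM after CMG under AngII, and under DOCA–HS at 1.33 and 0.425 CPM before and 0.615 and 0.703 CPM after CMG. Its 2 highest levels are those of the AngII before libraries, as for Nfkbia and Nfkbiz. The DOCA–HS levels of Cxcl2 lie near the floor. Its 0.703 CPM is from the shallow library, where 2.11 CPM of Nfkbiz rests on 3 counts. Before CMG, Cxcl2 was lower in DOCA–HS than in AngII by −3.48 (SE 0.61; edgeR, unadjusted p = 0.000146, adjusted p = 0.992), and Tnfaip2 was higher by 1.90 (SE 0.64, unadjusted p = 0.0133, adjusted p = 0.992). Over all genes, 0.425% were called higher and 0.413% lower there. The AngII before libraries are shared with the AngII comparison, so these differences are not a second observation. Of the DOCA–HS comparison, 29 target genes were tested, and Tnfaip2 alone was called (1.56, SE 0.53, edgeR, unadjusted p = 0.0181). With 1.79% of all genes called higher and 0.259% lower in that comparison, nothing is read from this count. Tnfaip2 was at 0.314 and 1.01 CPM before and 2.72 and 3.62 CPM after CMG under AngII. Under DOCA–HS it was at 2.10 and 2.23 CPM before and 8.30 and 2.81 CPM after, so the after libraries differ widely. After CMG, the 2 called target genes were both lower in DOCA–HS, the chemokine genes Ccl4 (−2.16) and Cxcl2 (−2.02). Over all genes, 1.09% were called higher and 0.313% lower in that comparison. Ccl4 was at 0.923 and 0 CPM in DOCA–HS, the 0 in the shallow library, and at 6.08 and 1.41 CPM in AngII.

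Immediate early genes, which cells switch on within minutes of a stimulus, were a further list. In the AngII model 4 of 20 tested were called lower after CMG, Fosb (−2.85), Atf3 (−2.51), Egr1 (−2.49) and Jun (−1.61). Of the list, 0 were called higher, and the median was −0.73, while 0.333% of all genes were called lower. The study had itself reported Fosb, Egr1 and Jun as lower after CMG in both models. The list was chosen with earlier results known, so nothing is read from its calls in either model. Fosb was at 1.65 and 15.5 CPM before and 1.28 and 0.961 CPM after. Atf3 was at 1.41 and 2.36 CPM before and 0.320 and 0.296 CPM after, and Egr1 at 8.41 and 11.0 CPM before and 1.44 and 1.85 CPM after. The after levels of Atf3 lie near the floor. The DOCA–HS libraries gave 3 called lower, Fosb (−3.07), Egr1 (−2.87) and Jun (−1.74), with a median of −0.33 and 0.259% of all genes called lower. Fosb was at 10.03 and 1.49 CPM before and 0.692 and 0.703 CPM after. Egr1 was at 21.7 and 2.66 CPM before and 1.77 and 1.41 CPM after, so the before libraries differ widely for both. Jun was at 27.8 and 12.3 CPM before and 7.07 and 4.22 CPM after. The second after level of each is from the shallow library, where 2.11 CPM of Nfkbiz rests on 3 counts. Fosb at 0.703 CPM and Egr1 at 1.41 CPM rest on fewer counts still. Before CMG, Dusp2 was called lower in DOCA–HS than in AngII (−1.59, SE 0.46), 1 of 20 tested, against 0.413% of all genes. Dusp2 was at 2.27 and 4.25 CPM in DOCA–HS and at 10.6 and 8.45 CPM in the same AngII before libraries. Among blood cell markers in the AngII model, NK cell markers had a median log2 fold change of 1.17 over 5 genes, with Klrb1a called higher. Klrb1a was at 0.314 and 1.18 CPM before and 1.60 and 2.66 CPM after. Of 3 endothelial markers tested, Kdr was called higher (2.43, SE 0.88), against 0.903% of all genes. Kdr was at 0.393 and 0 CPM before and 1.44 and 1.41 CPM after, all near the floor. Monocyte markers had a median of 0.72 over 7, T cell markers of −0.40 over 11 and neutrophil markers of 0.05 over 8. Erythroid markers had a median of −0.41, below 0 for 6 of 6 genes, and platelet markers of −0.35, below 0 for 5 of 5. Summed erythroid markers were at 21305 and 27504 CPM before and 21181 and 13400.3 CPM after CMG, and summed platelet markers at 580.3 and 171 CPM before and 526 and 54.2 CPM after. Summed NK cell markers were at 28.4 and 31.4 CPM before and 60.0 and 52.7 CPM after CMG, and summed monocyte markers at 64.3 and 37.8 CPM before and 116 and 87.0 CPM after. The part of these cells and of the immediate early genes in the levels of the inhibitors was not tested.

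**Figure D4:**
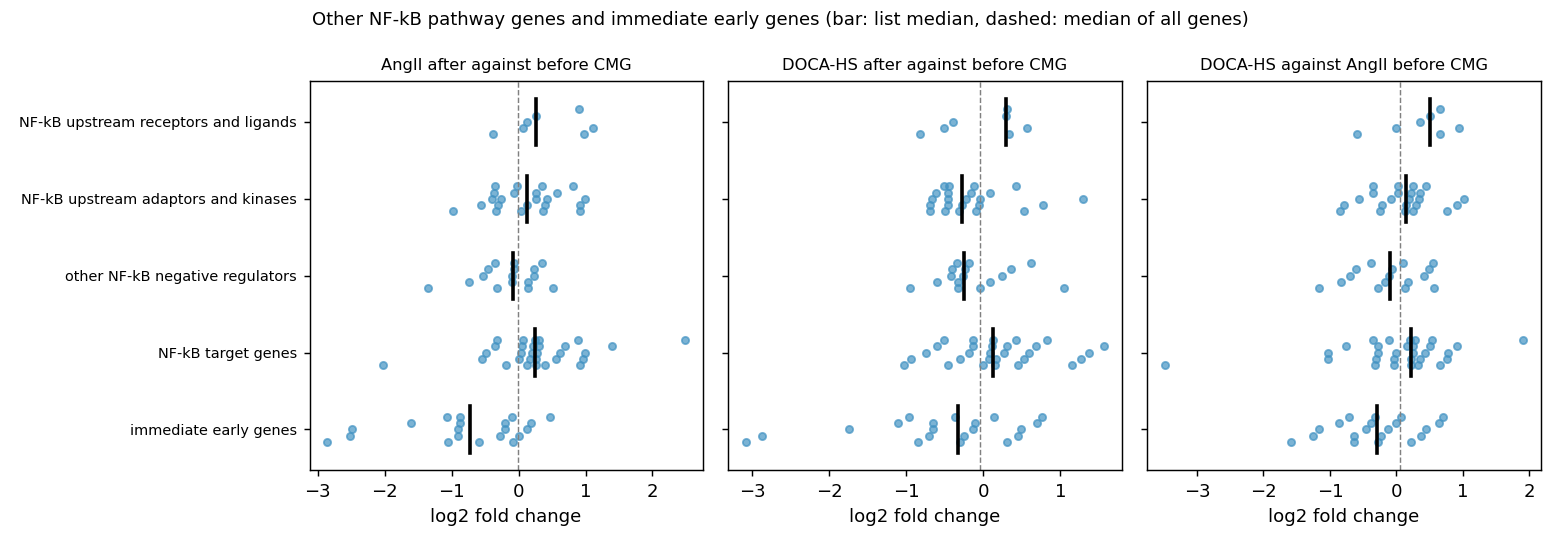
Log2 fold changes of the tested genes of 5 lists (rows) in 3 comparisons (panels). Each point is a gene, black bars are list medians and the dashed line is the median of all genes. In AngII after against before CMG, the bar of the immediate early genes stands at −0.73 and that of the NF-kB target genes at 0.25.

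The genes most like Nfkbia over the 8 libraries were Herpud1, Acbd4, Arhgef37, Klhdc2 and Erich1, by the root mean square difference of centred log2 CPM among 3623 genes that averaged 50 or more counts (0.315, 0.349, 0.388, 0.392 and 0.410). Herpud1, a gene of the endoplasmic reticulum stress response, was at 15.6 and 13.9 CPM before and 5.12 and 9.91 CPM after CMG in AngII rats, and at 6.30 to 8.71 CPM in the DOCA–HS model. Among 1136 genes with a mean of at least 200 counts, the nearest were Arhgef37, Cxcr4, Emb, Eif4e2 and Tsc22d3, so 1 of the 5 genes is shared by both choices. Herpud1, Acbd4, Klhdc2 and Erich1 lie nearer than Cxcr4 (0.412) and are absent only because the higher count limit left them out. The small overlap is thus set by that limit. None of the 7 genes described here was among those nearest to Nfkbia: the nearest was Nfkbib at 0.559, with rank 303 of 3622. The nearest pair within the family was Nfkb1 and Rela (0.212, rank 203 seen from Nfkb1 and 130 from Rela), followed by Nfkb2 and Nfkbie (0.248, ranks 213 and 182). Nfkbiz was nearest to Nfkbia, at 0.726 and rank 280. All of these distances are taken over the same 8 libraries, and the shallow one enters each of them.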

How the data were processed

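The authors prepared libraries from whole-blood RNA, aligned the reads to rn6 with HISAT2 and counted them per gene with HTSeq, per the labels and the study's methods, and they deposited these raw counts without normalization for 8 libraries and 17446 gene rows, with 0 further columns. They state that hemoglobin annotations were removed before counting, yet 2 hemoglobin genes remain the most abundant rows. The genes described and the lists were chosen with earlier results of these data known. Comparisons within a model were fitted on its 4 libraries and comparisons between models on all 8, with edgeR 4.0.16 in R 4.3.3 (filterByExpr, TMM, quasi-likelihood test) and Benjamini-Hochberg adjustment over all genes. The deposited tables of the authors' own comparisons were not used. Levels are CPM with TMM factors over all 8 libraries, and log2 CPM used a prior count of 2. DESeq2 1.42.0 and limma-voom (limma 3.58.1), other scalings and filters, a replicate block and each library left out in turn were alternatives. The steps were tested on simulated counts.

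Named were the 10 genes, up to 4 genes a list and comparison with the smallest p-values among those meeting the criterion, the 5 genes most like Nfkbia and each gene's nearest family member. Other names were picked after their values were seen. Libraries of the same group were further apart than counting error allows (chi-square per degree of freedom 15.4 to 94.6). Promoter windows come from RefSeq (GRCr8) and were matched by symbol for 7 of 7 genes.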

Additional observations from a re-analysis of the deposited data

Results flagged for a closer look

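The change of Rela after CMG differed in sign between the models, as did those of Nfkb1, Nfkb2, Nfkbib and Nfkbie. Only for Rela were the after and before libraries separate in both models. The share of all genes separate in this way was not computed, and with 2 libraries a group nothing is read from it. Both AngII after libraries (14.4 and 16.8 CPM) lay above both before libraries (13.8 and 14.02 CPM), and both DOCA–HS after libraries (15.0 and 4.92 CPM) lay below both before libraries (15.3 and 17.8 CPM). The difference of the changes, DOCA–HS minus AngII, was −0.76 on the log2 scale (SE 0.63), beside −0.75 for Nfkb1 and −0.77 for Nfkb2, and it was not tested. The level of 4.92 CPM rests on 7 counts, with an exact Poisson interval of 2.81 to 14.4 counts for counting error only. Without that library, the change of Rela in the DOCA–HS model was −0.13.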

How the results depend on the processing

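Of the 7 genes, the 2 called lower after CMG in the AngII model became 0 with total counts and with total counts outside hemoglobin, 1 (Nfkbia) with at least 10 counts in every library, and 1 to 2 with each library left out. Nfkbia ran from −1.59 to −1.15 and Nfkbiz from −1.53 to −1.17 in the other settings with a scaling, and per 100 subunit counts, chosen after seeing the data, they stood at −1.84 and −1.71. In the DOCA–HS model and in both comparisons between models, the 0 genes called became 0 to 1 with each library left out, and before CMG 1 (Nfkbia) with a threshold of 1. No log2 fold change of a called gene reversed. The 2 genes called belong to the AngII comparison, which was known when the genes were chosen. Nothing is therefore read from their calls or from the absence of a reversal. With the replicate number as a block, 1 gene (Nfkbia) was called in the AngII model and 0 in the other 3 comparisons. Deviations of same-numbered libraries correlated at 0.473 and 0.321, with 2 pairs a model, and whether they share a rat is not stated.

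Over all genes, the 89, 158, 67 and 112 calls of the 4 comparisons ran from 22 to 238, 9 to 268, 2 to 284 and 16 to 211, and from 123 to 403, 28 to 1712, 72 to 115 and 71 to 1496 with a library left out. The share called higher went from 73.0% to 94.6%, 87.3% to 0%, 50.7% to 93.3% and 77.7% to 45.0% with total counts in place of TMM. An adjusted p-value under 0.05 was reached by 0 genes in each comparison, against 479, 245, 270 and 223 at an unadjusted p of at most 0.05 by edgeR. Depth limits the values of DOCA–HS after replicate 2, with 3 to 88 counts a gene.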
